A study of Mus musculus with 15 samples.

Results

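Zp1, Zp2, Zp3, Gdf9, Bmp15, Figla, Nobox and Lhx8 are zona pellucida and oocyte identity genes, taken by name from a list of genes with known roles in the oocyte. All 8 were found among the 14392 genes of the expression table, and the rule that names them uses no measured value. The choice of these genes and of the tests was still made with earlier results of these data known. The study asked how loss of the deubiquitinase USP16 from the oocyte affects gene expression when the embryo takes over from maternal RNA. RNA-seq was analysed in 8 libraries, with 2 of each genotype at the zygote stage and 2 at the 2-cell stage. Each library held 10 embryos, lysed together and amplified with oligo-dT primers by the Smart-seq2 method. WT embryos came from Usp16+/+ mothers. The cKO embryos were Usp16 maternal -/paternal +, from Usp16 fl/fl;Gdf9-Cre mothers and WT fathers, so they lacked maternal USP16 but carried a paternal copy of the gene. All mice were on a C57BL/6 background. Mothers aged 21 to 23 days were superovulated, mated with WT males aged 10 to 12 weeks, and gave zygotes from the oviduct 28 h after hCG. Embryos were cultured in KSOM medium, and their zona was dissolved in acid medium before lysis, so the RNA of zona genes was measured and not the coat itself. The Cre transgene is driven by the promoter of Gdf9, one of the genes described here, and acts from the primordial follicle stage. Whether transgene RNA adds to the Gdf9 reads was not tested.

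The zona pellucida is the glycoprotein coat of the egg, built in the mouse from ZP1, ZP2 and ZP3, which the growing oocyte makes and secretes. GDF9 and BMP15 are related growth factors that the oocyte sends to the surrounding granulosa cells through receptors and SMAD proteins. FIGLA, NOBOX and LHX8 are transcription factors of the early oocyte, and FIGLA is needed for expression of the zona genes. These genes are transcribed in the oocyte, and transcription is off in the mature egg. Much of the maternal RNA is degraded by the time the embryonic genome is switched on around the 2-cell stage.

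In WT embryos, the RNA of Bmp15, Gdf9, Nobox, Lhx8 and Figla fell from the zygote to the 2-cell stage. In cKO embryos these 5 genes fell too, and so did Zp1 and Zp2. The calls of Gdf9 in both genotypes and of Figla in WT were lost when limma was fitted to the libraries compared alone. For Zp1 and Zp2, the test did not show that the stage change differed between genotypes. Zp2 was also 1.76-fold lower at the 2-cell stage in WT, without passing (adjusted p = 0.0668 in limma). In zygotes, no difference between genotypes was detected for any of the 8 genes. At the 2-cell stage, cKO embryos held less Bmp15 (7.25-fold), Lhx8 (4.64-fold), Zp1 (2.96-fold) and Nobox (2.45-fold) than WT embryos, while the means of Zp3 and Gdf9 were 1.42 and 1.27 times those of WT and did not pass the test. The Zp1 and Nobox calls were lost after median-ratio scaling of the libraries. No gene passed when limma was fitted to the 2-cell libraries alone. Levels are given in FPKM, the number of fragments scaled to transcript length and library size, with values under 1 set to 1 by the authors. The plot of all 8 levels by library shows each value.

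**Figure D1:**
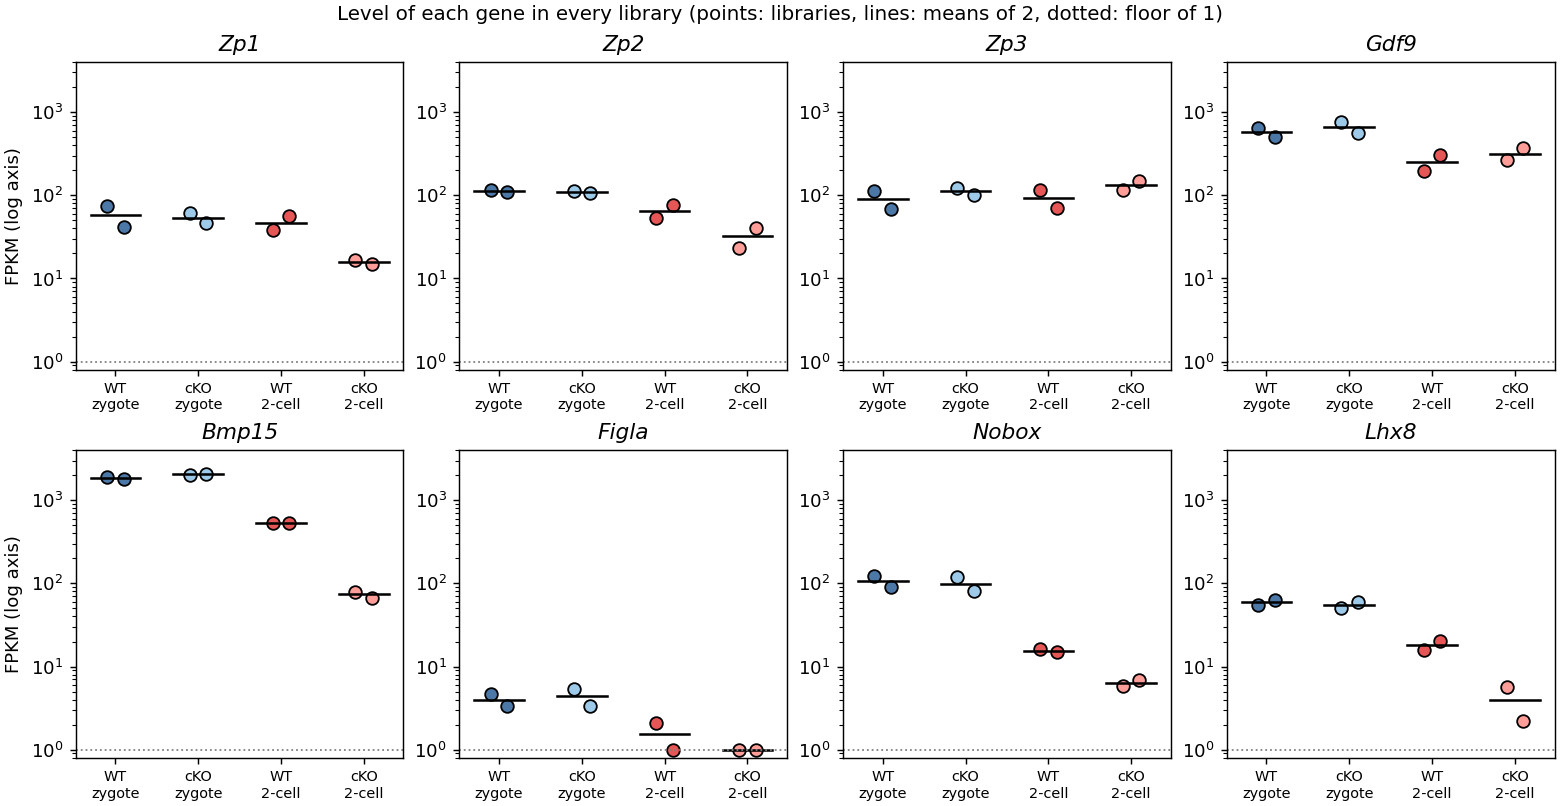
Level of each of the 8 genes (y axis, FPKM on a log axis) in WT and cKO zygotes and 2-cell embryos (x axis). Points are libraries, lines are means of 2 libraries and the dotted line is the floor of 1 FPKM. Bmp15 drops from 534 FPKM in WT to 73.6 FPKM in cKO 2-cell embryos, and the group means of Zp3 lie between 89.8 and 132 FPKM.

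The stretches upstream of Zp3 and Bmp15 are shown because their differences between genotypes in 2-cell embryos lay furthest apart. Both are 250 bases ending at the transcription start, read 5′ to 3′ on the gene's strand, from RefSeq on GRCm38.p6, at chr5:135979855-135980104 (plus strand) for Zp3 and chrX:6320725-6320974 (minus strand) for Bmp15. Capitals mark matches, on either strand, to the E-box CANNTG that proteins of the FIGLA class recognise, to TAATTA or TAATTG for NOBOX, and to TGATTG for LHX8.
Zp3: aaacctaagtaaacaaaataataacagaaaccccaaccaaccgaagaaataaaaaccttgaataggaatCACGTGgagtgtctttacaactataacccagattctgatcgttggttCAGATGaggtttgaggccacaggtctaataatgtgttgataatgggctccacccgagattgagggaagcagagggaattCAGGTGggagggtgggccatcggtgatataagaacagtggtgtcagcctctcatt
Bmp15: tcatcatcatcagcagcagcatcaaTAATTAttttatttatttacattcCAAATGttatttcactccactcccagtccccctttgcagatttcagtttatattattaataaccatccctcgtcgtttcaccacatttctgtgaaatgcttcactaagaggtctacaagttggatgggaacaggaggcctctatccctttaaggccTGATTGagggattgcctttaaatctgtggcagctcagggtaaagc

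The Zp3 stretch held 3 E-boxes, which begin 181, 134 and 55 bases before the start, and no match to the NOBOX or LHX8 letters. The Bmp15 stretch held 1 E-box at 201 bases, 1 TAATTA at 225 bases and 1 TGATTG at 45 bases before the start. Of 32851 promoters of this length in the same table, 66.2% held an E-box, 11.3% a NOBOX match and 12.7% an LHX8 match. Entries were found for 5 of the 8 genes, and not for Zp1, Zp2 or Gdf9. The stretch of Nobox is shown for a gene that encodes one of the 3 factors, with its E-boxes 137 and 50 bases before the start, at chr6:43309555-43309804 on the minus strand.
Nobox: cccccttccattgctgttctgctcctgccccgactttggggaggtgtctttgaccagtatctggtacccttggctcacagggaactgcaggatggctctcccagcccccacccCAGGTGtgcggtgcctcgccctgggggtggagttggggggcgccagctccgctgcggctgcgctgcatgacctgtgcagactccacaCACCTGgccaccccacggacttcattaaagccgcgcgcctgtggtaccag

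The stretch of Figla held 2 E-boxes and none of the other letters, and that of Lhx8 held no match to any of the 3 motifs. A match describes letters in this window and does not show binding.

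Usp16, the deleted gene, was checked in every library. Its level was 184 and 187 FPKM in WT zygotes and 16.8 and 22.0 FPKM in cKO zygotes, 9.58-fold lower on average with no overlap, though the difference did not pass limma after adjustment (adjusted p = 0.191). In 2-cell embryos it was 168 and 183 FPKM in WT and 168 and 84.8 FPKM in cKO. The summed FPKM of a library lay between 547752 and 593317 in 7 libraries and was 770989 in cKO 2-cell replicate 2. The 2 cKO 2-cell libraries also differed more from each other than those of other groups: the median SD between libraries, in log2(FPKM + 1) over genes with a group mean of at least 10 FPKM, was 0.49, against 0.14 to 0.21 elsewhere. Read numbers are not in the table, so depth is unknown and no counting interval can be given. The labels do not say that the 2 libraries of a group came from different females, so p-values measure only the spread between these libraries. With 2 libraries on each side, the smallest two-sided p of an exact permutation test is 0.333. Since embryos were measured in bulk after oligo-dT priming, fewer transcripts, less RNA per cell and shorter poly(A) tails cannot be told apart.

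Zp1 encodes the zona protein that cross-links the filaments of the coat, and it lies at chr19:10988777-10995122 on the minus strand in mm9, with 12 exons. Its level was 73.6 and 41.8 FPKM in WT and 60.7 and 46.7 in cKO zygotes, then 38.0 and 55.7 in WT and 16.6 and 15.0 in cKO 2-cell embryos. The cKO 2-cell libraries were the 2 lowest of all 8, and the other 3 groups overlapped. Zp1 was 2.96-fold lower in cKO than in WT 2-cell embryos, a log2 difference of -1.49 (SE 0.34, adjusted p = 0.0208). This call was lost when any 1 of the 4 libraries was left out, while the difference stayed between -1.76 and -1.03 over all alternatives. From zygote to 2-cell, the log2 difference was -0.27 (SE 0.34, adjusted p = 0.546) in WT and -1.69 (SE 0.34, adjusted p = 0.00634) in cKO embryos. The stage call in cKO was lost without cKO zygote replicate 1 (-1.51). The change in the stage difference between genotypes did not pass the test, at -1.43 (SE 0.48, adjusted p = 0.103).

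Zp2 encodes the zona protein bound by sperm and cleaved after fertilization, and lies at chr7:127270286-127288804 on the minus strand with 18 exons. Its level was 117 and 111 FPKM in WT and 113 and 106 in cKO zygotes, then 53.7 and 76.1 in WT and 23.4 and 40.9 in cKO 2-cell embryos. Every 2-cell library was below every zygote library, and both cKO 2-cell libraries were below both WT ones. The 2.02-fold lower mean in cKO 2-cell embryos did not pass the test, at a log2 difference of -1.02 (SE 0.31, adjusted p = 0.0501), and passed when cKO 2-cell replicate 2 was left out (-1.41). It passed under 4 of 18 alternatives in all. The stage difference was -0.83 (SE 0.31, adjusted p = 0.0668) in WT, where it passed under 4 of 17 alternatives, and -1.79 (SE 0.31, adjusted p = 0.00344) in cKO. The test of the difference between these gave -0.96 (SE 0.43, adjusted p = 0.196).

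Zp3 encodes the zona protein that pairs with ZP2 along the filament, and lies at chr5:136455969-136464494 on the plus strand with 8 exons. Its level was 112 and 67.5 FPKM in WT and 122 and 102 in cKO zygotes, then 115 and 70.9 in WT and 116 and 149 in cKO 2-cell embryos. The cKO 2-cell libraries were above both WT 2-cell libraries, the lower of them by a narrow margin, and overlapped the cKO zygotes. No comparison of Zp3 passed the test. The log2 difference was 0.53 (SE 0.35, adjusted p = 0.290) between cKO and WT 2-cell embryos, 0.05 (SE 0.35) between stages in WT and 0.24 (SE 0.35) between stages in cKO.

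The make-up of the zona RNA pool can be read within each library, where the scaling between libraries has no part. Zp3 took 37.0% and 30.6% of the summed FPKM of the 3 zona genes in WT and 41.2% and 39.9% in cKO zygotes, then 55.7% and 35.0% in WT and 74.3% and 72.7% in cKO 2-cell embryos. The cKO 2-cell libraries lay above the other 6, and their 2 values were close to each other. Zp1 took 24.3% and 19.0%, 20.5% and 18.3%, 18.4% and 27.5%, and 10.7% and 7.32% in the same order of groups, and the cKO 2-cell libraries were the lowest. The ratio of Zp3 to Zp1 was 8.45 ± 2.09 (SD, n = 2) in cKO 2-cell embryos and 2.15 ± 1.24 in WT 2-cell embryos. The summed level of the 3 genes was 207 and 203 FPKM in WT and 156 and 205 FPKM in cKO 2-cell embryos, which overlap. No test was run on these ratios.

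**Figure D2:**
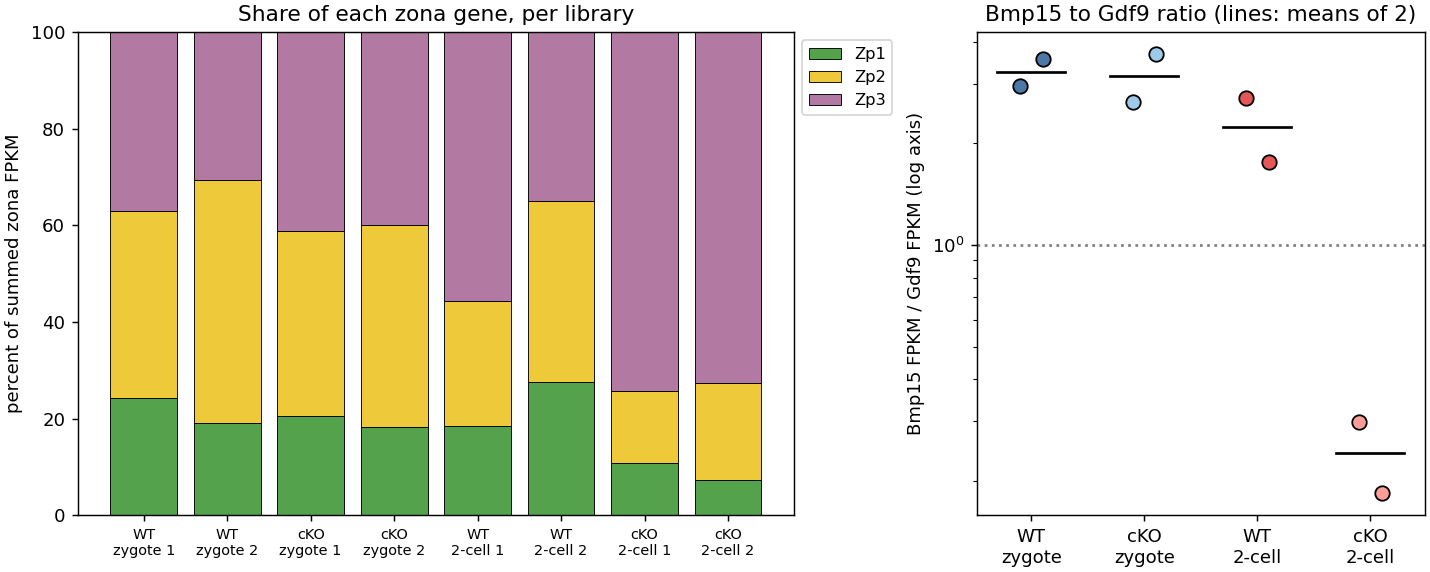
Left, percent of the summed FPKM of the 3 zona genes taken by each (y axis) in each of the 8 libraries (x axis). Right, Bmp15 FPKM divided by Gdf9 FPKM (y axis, log axis) per library by group, with lines at the means of 2 libraries and a dotted line at 1. Zp3 takes 74.3% and 72.7% in the cKO 2-cell libraries, and the Bmp15 to Gdf9 ratio is below 1 there and above 1 in the other 6 libraries.

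Bmp15, the growth factor gene on the X chromosome (chrX:5891225-5897839, minus strand, 2 exons), had the highest level of the 8 genes in zygotes. Its level was 1883 and 1800 FPKM in WT and 2025 and 2074 in cKO zygotes, then 531 and 536 in WT and 79.7 and 67.5 in cKO 2-cell embryos. Both cKO zygote libraries were above both WT ones, the WT 2-cell libraries lay well below them, and the cKO 2-cell libraries lay lowest, with no overlap between any pair of groups. From zygote to 2-cell, Bmp15 fell 3.45-fold in WT (log2 difference -1.78, SE 0.20, adjusted p = 0.000769) and 27.9-fold in cKO embryos (-4.79, SE 0.20, adjusted p = 5.9e-05). In zygotes, the log2 difference between cKO and WT was 0.15 (SE 0.20, adjusted p = 1). At the 2-cell stage it was -2.85 (SE 0.20, adjusted p = 0.000936), which is 7.25-fold. The genotype difference at the 2-cell stage itself differed from that in zygotes, by -3.00 (SE 0.28, adjusted p = 0.0064), a call that was lost when any 1 zygote library was left out (adjusted p up to 0.0626, differences from -3.03 to -2.97).

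Gdf9, the partner of Bmp15 in signalling to granulosa cells, lies at chr11:53244525-53251406 on the plus strand with 2 exons. Its level was 639 and 506 FPKM in WT and 764 and 565 in cKO zygotes, then 195 and 304 in WT and 266 and 367 in cKO 2-cell embryos. The 2-cell libraries were below the zygote libraries in both genotypes, and the genotypes overlapped at each stage. Gdf9 fell by 1.22 on the log2 scale in WT (SE 0.32, adjusted p = 0.0216) and by 1.07 in cKO embryos (SE 0.32, adjusted p = 0.0326). The WT call was lost without either WT zygote library or WT 2-cell replicate 1, and the cKO call under 9 of 17 alternatives, in each with the same direction. Between cKO and WT 2-cell embryos the log2 difference was 0.36 (SE 0.32, adjusted p = 0.436).

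The pair changed places in the cKO 2-cell embryo. The ratio of Bmp15 to Gdf9 was 2.95 and 3.56 in WT and 2.65 and 3.67 in cKO zygotes, then 2.72 and 1.76 in WT and 0.299 and 0.184 in cKO 2-cell embryos. Bmp15 was above Gdf9 in 6 libraries and below it in both cKO 2-cell libraries. Bmp15 made up 54.9% and 49.7% of the summed FPKM of the 8 genes in WT 2-cell embryos, and 15.5% and 10.4% in cKO 2-cell embryos.

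Figla, a basic helix-loop-helix factor (chr6:85967185-85970990, plus strand, 3 exons), was the lowest of the 8 genes in every group. Its level was 4.66 and 3.32 FPKM in WT and 5.35 and 3.38 in cKO zygotes, then 2.11 and 1 in WT 2-cell embryos, and both cKO 2-cell libraries were at the floor of 1. Zygotes of the genotypes overlapped, and a WT 2-cell library was at the floor as well. From zygote to 2-cell, Figla fell in WT (log2 difference -0.99, SE 0.29, adjusted p = 0.0303) and was at least 4.37-fold lower in cKO (adjusted p = 0.00737). The WT call was lost under 7 of 16 alternatives, and without WT 2-cell replicate 1 the level was at least 3.99-fold lower. Between genotypes at the 2-cell stage, the test gave an adjusted p of 0.437, and a difference below the floor was not detectable.

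Nobox, a homeobox factor (chr6:43253673-43259561, minus strand, 9 exons), showed the steepest drop in WT embryos among the 8 genes. Its level was 124 and 91.1 FPKM in WT and 119.002 and 79.9 in cKO zygotes, then 16.3 and 14.8 in WT and 5.81 and 6.88 in cKO 2-cell embryos. Both cKO 2-cell libraries were below both WT ones, and zygotes of the genotypes overlapped. Nobox fell 6.93-fold from zygote to 2-cell in WT (log2 difference -2.70, SE 0.27, adjusted p = 0.00051) and 15.7-fold in cKO (-3.75, SE 0.27, adjusted p = 0.000152). It was 2.45-fold lower in cKO than in WT 2-cell embryos (-1.17, SE 0.27, adjusted p = 0.0216). The last call was lost without WT 2-cell replicate 1 or 2 or cKO 2-cell replicate 1, with an adjusted p of up to 0.397 over the alternatives tried.

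Lhx8, a LIM-homeobox factor (chr3:153969260-153993615, minus strand, 9 exons), had levels of 55.4 and 62.8 FPKM in WT and 50.1 and 59.4 in cKO zygotes, then 16.0 and 20.3 in WT and 5.60 and 2.24 in cKO 2-cell embryos. The cKO 2-cell libraries were the lowest and lay further apart on the log scale than the WT pair, and zygotes overlapped. Lhx8 fell 3.25-fold in WT (log2 difference -1.65, SE 0.36, adjusted p = 0.01) and 14.0-fold in cKO embryos (-3.59, SE 0.36, adjusted p = 0.000426). It was 4.64-fold lower in cKO than in WT 2-cell embryos (-2.04, SE 0.36, adjusted p = 0.00961). Without cKO 2-cell replicate 1 the fold was 8.13 between genotypes and 24.5 between stages in cKO, and the log2 difference between genotypes ran from -2.56 to -1.53 by cKO library. The genotype call was lost without WT 2-cell replicate 2 (-1.88), and the WT stage call without WT zygote replicate 2 or either WT 2-cell library. The test of the difference between the stages gave -1.93 (SE 0.51, adjusted p = 0.0597).

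**Figure D3:**
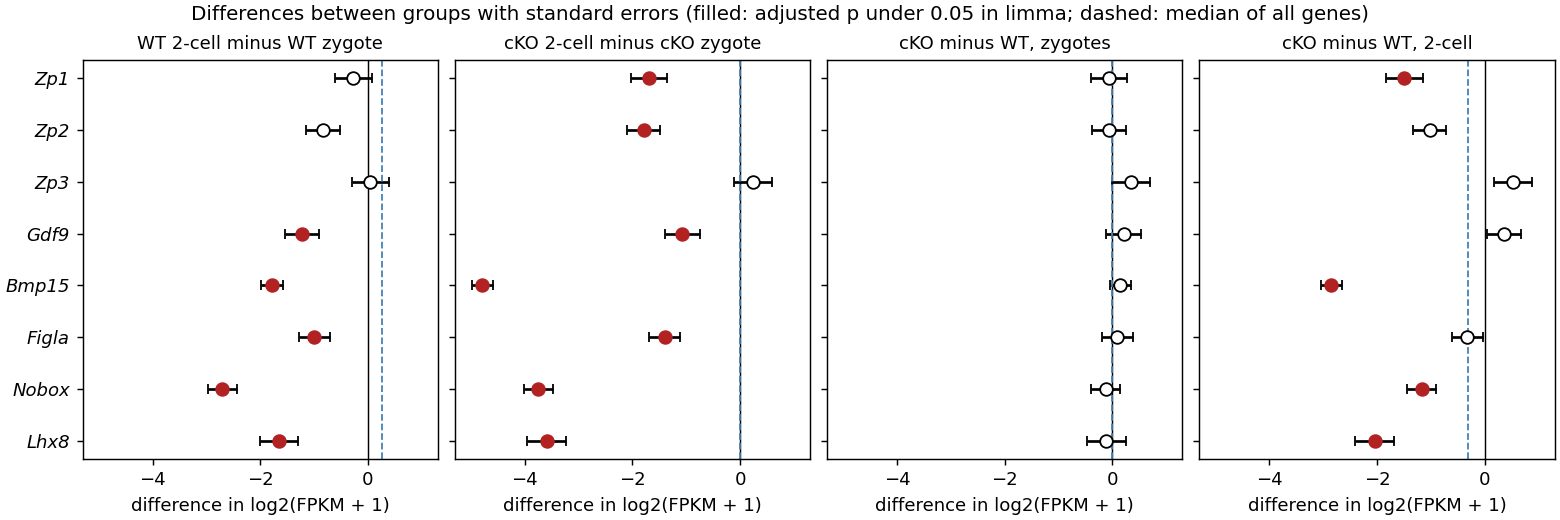
Difference in log2(FPKM + 1) (x axis) of each gene (y axis) in 4 comparisons, with standard errors from limma. Filled points have an adjusted p under 0.05 and the dashed line is the median of all 14392 genes. No point is filled in the zygote comparison, and Bmp15, Lhx8, Zp1 and Nobox are filled in the 2-cell comparison.

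Counted over the 8 genes and set beside the whole table, the comparisons read as follows. They share libraries, so their values stand side by side and are not independent of each other. The genes, and the gene lists read beside them below, were chosen with earlier results of these data known. The counts are therefore descriptions and not independent support. From zygote to 2-cell in WT, 5 of 8 genes fell in limma (Gdf9, Bmp15, Figla, Nobox and Lhx8), against 15.5% of all genes, and 3 of 8 had a mean more than 3-fold lower, the fold threshold the study used, against 8.78%. In cKO embryos, 7 of 8 fell in limma, against 27.1%, and 6 of 8 were more than 3-fold lower, against 19.2%. All genes include those at the floor of 1 FPKM, 4242 to 4747 in a zygote library and 1642 to 1716 in a WT 2-cell library. No fall can be seen from the floor, and the 8 genes were above it in every zygote library. The shares and medians of all genes are therefore not those of expressed genes. Zp3 did not pass in either genotype. The median log2 difference of the 8 genes was -1.10 in WT and -1.74 in cKO, where that of all genes was 0.27 and 0.00.

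In zygotes, 0 of 8 genes differed between genotypes in limma in either direction, against 0.0208% of all genes, and 0 of 8 by more than 3-fold, against 0.153%. None had an unadjusted p under 0.05 in limma, and the log2 differences ran from -0.12 to 0.35. Usp16, at 9.58-fold lower in cKO zygotes, had an unadjusted p of 6.63e-05 in limma. It did not pass after adjustment (adjusted p = 0.191), so the adjusted test can miss a large difference. The spread used in limma was shared by all groups, and the cKO 2-cell libraries differed most from each other. Whether this spread kept Usp16 from passing was not tested. At the 2-cell stage, 4 of 8 were lower in cKO in limma (Zp1, Bmp15, Nobox and Lhx8), against 24.6% of all genes, and 2 of 8 (Bmp15 and Lhx8) were more than 3-fold lower, against 13.5%. Both cKO libraries were below both WT libraries for 5 of 8 genes, against 43.4% of all genes. The difference between the genotype effects at the 2 stages passed in limma for 1 of 8 genes, Bmp15, against 11.8% in either direction. The median log2 difference of the 8 genes at the 2-cell stage was -1.10 and that of all genes -0.30.

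The 2-cell counts rest on one spread shared by all groups. When limma was fitted to the 4 libraries of the 2-cell comparison alone, 0 of all 14392 genes passed, the 8 among them, with 4 of 8 at an unadjusted p under 0.05, and Bmp15 had an adjusted p of 0.0598. After median-ratio scaling, which moved the median log2 ratio of genes above the floor from -0.31 to 0.16, the calls of Zp1 and Nobox were lost and those of Bmp15 and Lhx8 were not.

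**Figure D4:**
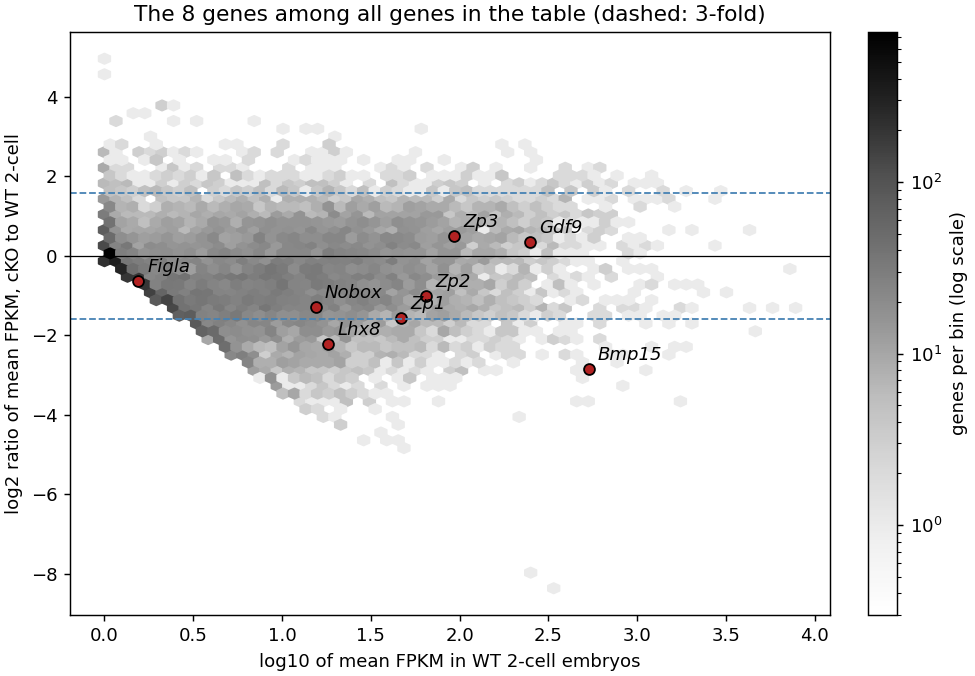
Log2 ratio of mean FPKM in cKO to WT 2-cell embryos (y axis) against log10 of the mean FPKM in WT 2-cell embryos (x axis), with grey bins shaded by their number of genes and the 8 genes as red points. Dashed lines mark 3-fold. Bmp15, at 7.25-fold lower, and Lhx8, at 4.64-fold lower, lie beyond the lower line, and Zp1, at 2.96-fold, lies just above it.

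The order of the levels changed with the group. In WT zygotes the means ran from Bmp15 (1841 FPKM) and Gdf9 (572) to Zp2 (114), Nobox (108), Zp3 (89.8), Lhx8 (59.1), Zp1 (57.7) and Figla (3.99). Zp2, Nobox and Zp3 overlapped as neighbours there, and so did Lhx8 and Zp1. In WT 2-cell embryos Bmp15 (534) and Gdf9 (249) were again above the zona genes, whose libraries overlapped as neighbours, and Lhx8 (18.2) and Nobox (15.5) overlapped below them. In cKO 2-cell embryos the order was Gdf9 (316 FPKM), Zp3 (132), Bmp15 (73.6), Zp2 (32.2), Zp1 (15.8), Nobox (6.35), Lhx8 (3.92) and Figla (1), with no overlap between neighbours. The summed FPKM of the 8 genes was 2846 ± 230 (SD, n = 2) in WT and 3148 ± 157 in cKO zygotes, then 1023 ± 78.3 in WT and 581 ± 95.1 in cKO 2-cell embryos.

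Likeness between patterns was measured as the root-mean-square difference of log2(FPKM + 1) over the 8 libraries, each gene centred on its own mean. Among the 8 genes, Zp1 and Zp2 were closest (0.38), followed by Gdf9 and Figla (0.42), Zp2 and Figla (0.45) and Bmp15 and Lhx8 (0.50), and Zp3 and Bmp15 were farthest apart (2.11). Figla lay between 1 and 5.35 FPKM, where log2(FPKM + 1) and the floor compress its changes, so its distances are less comparable. Among 8018 genes that reached 10 FPKM in some library, the nearest to Bmp15 were Cep164 (0.18), Itga9 (0.18) and Me1 (0.20), and the nearest to Lhx8 was Runx1t1 (0.10). Zar1, a maternal-effect gene of the oocyte, was the second nearest to Nobox (0.14), after Fbxw14 (0.14). Dgcr6 was nearest to Gdf9 (0.19), Trappc3 to Zp1 (0.13), Capn7 to Zp2 (0.11) and Dpm2 to Zp3 (0.18). Figla did not reach 10 FPKM and was not matched.

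The transcripts of the 8 genes differ in their untranslated ends, which the choice of genes did not use. In the GENCODE M1 models, the 3′ UTR was 13 bases in Zp3, 28 in Zp2 and 34 in Zp1, where the median of 26757 transcripts with a consensus coding sequence was 625 bases and 9.31% were no longer than 34. Outside the zona genes it was 120 bases in Figla, 281 in Nobox, 360 in Gdf9, 663 in Lhx8 and 1523 in Bmp15. The annotated end was longest in Bmp15 and Lhx8, the genes with the largest folds between genotypes in 2-cell embryos, which was noticed after their values were seen. Gdf9, next in length, had a mean 1.27 times that of WT, while Zp1 and Zp2, with short ends, were 2.96- and 2.02-fold lower. Zp1 and Zp3 were alike in this length and lay apart in their 2-cell values. Whether this length has a part in the levels was not tested.

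Other genes of the egg surface were read beside the zona genes, and 7 of 10 listed were in the table. In 2-cell embryos, 2 of the 7 were lower in cKO, near the share of 24.6% among all genes, and 5 did not pass. Their median log2 difference was -0.91, beside -0.30 for all genes. Oosp1, an oocyte-secreted protein gene, was 4936 and 3711 FPKM in WT and 544 and 1876 FPKM in cKO 2-cell embryos, which did not overlap (log2 difference -2.08, SE 0.59, adjusted p = 0.0416). Its mean was 3.57-fold lower, which became 2.31-fold without cKO 2-cell replicate 1 and 7.95-fold without replicate 2. Astl, the protease that cleaves ZP2 after fertilization, was the other (-1.34, SE 0.40, adjusted p = 0.0493) and was chosen for naming after its values were seen. Its fold of 3.13 became 4.98 without cKO 2-cell replicate 1. Folr4, the egg receptor for sperm IZUMO1, was 12.6 and 12.4 FPKM in WT and 7.72 and 4.90 FPKM in cKO and did not pass (adjusted p = 0.0722). Cd9, a tetraspanin of the egg membrane (adjusted p = 0.0572), and Plat, tissue plasminogen activator (adjusted p = 0.303), did not pass either.

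Of 17 listed receptors and SMAD proteins of the GDF9 and BMP15 pathway, 15 were in the table. They summed to 113 to 134 FPKM in WT and 132 to 144 FPKM in cKO zygotes. In 2-cell embryos the sum was 84.5 to 98.2 FPKM in WT and 54.6 to 82.8 FPKM in cKO. In 2-cell embryos, 5 of the 15 were lower in cKO, against 24.6% of all genes, and 10 did not pass, with a median log2 difference of -0.30, beside -0.30 for all genes. The 5 include genes near the floor. Acvr1 (1.37 and 1.55 FPKM in WT), Smad5 (1.82 and 1.57) and Smad6 (1.32 and 1.59) were at the floor in both cKO 2-cell libraries. Smad3, a transducer of GDF9-type signals, was 16.1 and 14.8 FPKM in WT and 4.80 and 4.30 FPKM in cKO (log2 difference -1.57, SE 0.18, adjusted p = 0.0031). Bmpr1b, a type I BMP receptor (adjusted p = 0.414), Bmpr2, the type II receptor of both factors (adjusted p = 0.305), and Smad4, the common SMAD (adjusted p = 0.841), did not pass.

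The 20 listed partners, upstream factors and known targets of FIGLA, NOBOX and LHX8 were all in the table. Between genotypes in 2-cell embryos, 13 of them were lower in cKO, against 24.6% of all genes, 1 was higher, against 6.16%, and 6 did not pass. Their median log2 difference was -1.13, beside -0.30 for all genes. From zygote to 2-cell in WT, 11 of the 20 fell, against 15.5% of all genes, and 4 rose, against 34.2%. Sohlh1 and Tcf3 were among those that rose in WT, and both were lower in cKO 2-cell embryos. A lower level in cKO is therefore not in every case a further fall of RNA that declined in WT. Bcl2l10, an oocyte BCL2-family gene, was 647 and 662 FPKM in WT and 153 and 261 FPKM in cKO 2-cell embryos (log2 difference -1.71, SE 0.32, adjusted p = 0.0114). Npm2, a histone chaperone of the egg, was 134 and 124 FPKM in WT and 77.7 and 78.4 FPKM in cKO (-0.72, SE 0.20, adjusted p = 0.0385). Dppa3, a maternal-effect gene, was the higher one, at 2958 and 2472 FPKM in WT and 5888 and 8774 FPKM in cKO (1.41, SE 0.34, adjusted p = 0.0242). H1foo, the oocyte linker histone, was 74.5 and 82.7 FPKM in WT and 71.3 and 126 FPKM in cKO, which overlapped (adjusted p = 0.578).

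Markers of other cells and of the 2-cell stage moved as follows. Of 19 cumulus and granulosa markers, 8 were in the table, with a summed FPKM of 31.0 to 34.8 in WT and 30.6 to 31.1 in cKO zygotes, then 38.7 to 51.3 in WT and 25.4 to 25.5 in cKO 2-cell embryos, and 6 of the 8 were at the floor in every zygote library. The granulosa sums hid opposite moves. Cyp19a1 was 22.3 to 26.7 FPKM in zygotes and 1 to 1.78 FPKM in 2-cell embryos. Amhr2 was at the floor in zygotes and 17.8 to 32.7 FPKM in 2-cell embryos. Of 11 sperm markers, 5 were in the table, summing to 18.2 to 26.7 FPKM in WT and 20.2 to 21.1 FPKM in cKO zygotes. In 2-cell embryos they summed to 29.1 to 32.3 FPKM in WT and 17.6 to 60.9 FPKM in cKO. Prm2 was 13.5 to 20.1 FPKM in zygotes and 1 to 1.64 FPKM in 2-cell embryos, where Ldhc was 12.6 to 56.9 FPKM. Of 16 genes that mark the 2-cell stage, 11 were in the table, and 10 of them rose from zygote to 2-cell in WT, against 34.2% of all genes, and 7 in cKO embryos, against 24.6%. In 2-cell embryos, 7 of the 11 were lower in cKO than in WT, against 24.6% of all genes. The median log2 difference over all 11 was -1.67. Their sum over all 11 was 1781 to 1905 FPKM in WT and 1447 to 1550 FPKM in cKO, most of it Sp110, which was 1147 and 1024 FPKM in WT and 1340 and 1153 FPKM in cKO (adjusted p = 0.598). The part of embryo stage and of other cells in the values of the 8 genes was not tested.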

How the data were processed

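RNA-seq was analysed in 8 libraries, grouped by the sample labels. ChIP-seq samples of the series were not used here. The authors trimmed reads to 50 bp, mapped them to mm9 with TopHat 2.1.1 and computed FPKM with Cufflinks 2.2.1, and deposited 1 table of these FPKM values, with values under 1 set to 1 and genes never above 1 removed. The annotation is not given in the sources used here. Since FPKM holds no counts, depth is unknown and precision rests on 2 libraries a group.

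Both a fold rule and a model were computed from the table. Group means were compared by their ratio, with a threshold of 3-fold. limma 3.58.1 (R 4.3.3) was fitted to log2(FPKM + 1) over all 14392 genes, with 4 groups in 1 model, a trend in the prior, 4 residual degrees of freedom, and two-sided tests at a Benjamini-Hochberg adjusted p of 0.05. On the log2(FPKM + 1) scale, fold changes understate the change of low genes. The fit was tested on simulated data with the same spread for every gene and group. The real spread was larger in cKO 2-cell embryos, so that test says little about the 2-cell calls. Tables and figures were made in Python 3.11.15 with pandas 2.3.3, numpy 2.4.6 and matplotlib 3.10.9.

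All 8 genes are named, as are, from each list, genes among the 4 with the highest mean FPKM and the 3 nearest patterns. Astl, Acvr1, Smad5, Smad6, Sohlh1 and Tcf3 fall outside this rule and were named after their values were seen. The genes, lists and tests were chosen with earlier results of these data known. Alternatives covered the pseudocount, filter, prior, scaling, array weights, fold threshold, type of mean, replicate block and leaving out each library. Gene coordinates come from GENCODE M1 on mm9, and upstream sequences from RefSeq on GRCm38.p6.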

Additional observations from a re-analysis of the deposited data

Results flagged for a closer look

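Bmp15 met the rule for an effect that differs between stages: the log2 difference between cKO and WT embryos was 0.15 in zygotes and -2.85 in 2-cell embryos, and the test of the difference between them gave -3.00 (SE 0.28, adjusted p = 0.0064 in limma). Both cKO 2-cell libraries were below both WT ones. The adjusted p rose to at most 0.0626 when any 1 zygote library was left out, and 1 or 2 of all genes then passed. Groups of 2 libraries are too small to test for a library far from the others.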

How the results depend on the processing

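Bmp15 was lower in cKO 2-cell embryos under all 18 alternatives, between -3.10 and -2.37 on the log2 scale, and lost its call in 1 of them (adjusted p = 0.0598 in limma on the 4 libraries alone). Its adjusted p over the alternatives ran from 0.000681 to 0.0598. The number of the 8 genes called in limma at the 2-cell stage, 4 in the fit reported, became 2 after median-ratio scaling, 1 with array weights and 0 in the 4 libraries alone, while the count over all genes went from 4425 to 3184, 977 and 0. It was 1 to 4 when a library was left out. It was lowest without WT 2-cell replicate 2 (1, Bmp15; 3331 of all genes) and was 2 without WT 2-cell replicate 1 (3396) or cKO 2-cell replicate 1 (6476). A 2-fold threshold gave 5 genes lower at the 2-cell stage and 5 in the WT stage comparison, and 1 gene passed at the 2-cell stage when every library had to pass 3-fold. In the WT stage comparison limma gave 3 in the 4 libraries alone and 2 to 5 when a library was left out, with 2 without WT zygote replicate 2 and 3 without any of the other 3 WT libraries. In the cKO stage comparison it gave 4 with array weights (5614 of all genes, from 7441). The test of the stage difference gave 2 with a mean FPKM of at least 3, and 0 to 3 when a library was left out: 0 whichever zygote library it was, 2 without cKO 2-cell replicate 1 and 3 without cKO 2-cell replicate 2. Over all genes, 1701 passed in the fit reported, 1 or 2 without a zygote library, and 4617 and 3581 without these cKO libraries. The ratio of the summed zona FPKM in cKO to WT 2-cell embryos, 0.880, became 1.25 after median-ratio scaling. The cause of these changes was not tested.

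Directions turned only for differences that had not passed the test. After median-ratio scaling, Zp3 between stages in WT became -0.28. After sum scaling, the stage difference of the genotype effect became -0.04 for Zp3 and -0.07 for Gdf9. Leaving out a library gave, between stages in WT, Zp1 from -0.67 to 0.13 and Zp3 from -0.31 to 0.42. In zygotes it gave Zp1 from -0.46 to 0.34, Zp3 from -0.01 to 0.71, Gdf9 from -0.01 to 0.43, Figla from -0.17 to 0.36, Nobox from -0.41 to 0.16 and Lhx8 from -0.23 to 0.01. For the genotype effect between stages it gave Zp3 from -0.18 to 0.54 and Gdf9 from -0.17 to 0.47.

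Replicate numbers are shared between groups, but no label says that they mark a shared litter or day. With 2 pairs a comparison, the deviations of same-numbered libraries correlated at 0.110 and 0.043 for the stages in WT and cKO, 0.497 in zygotes and -0.239 in 2-cell embryos. With the replicate block, limma called 5 genes at the 2-cell stage, 0 in zygotes, 5 and 6 in the WT and cKO stage comparisons and 1 for the stage difference. It added Zp2 at the 2-cell stage (adjusted p = 0.039), took away Gdf9 between stages in cKO and changed no other call of the 8 genes. Zp2 also passed at the 2-cell stage with sum scaling (0.0142) and with a mean FPKM of at least 3 (0.0401). The crossed pairing of the 2-cell libraries, chosen after seeing the data, called 4.

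Levels near the floor of 1 FPKM, as for Figla, hide any further difference, and with 2 libraries a group a difference of the size of Zp2's sat at the threshold.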
